A study of Mus musculus with 39 samples.

Results

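The Egr and Nr4a immediate early families were examined as 10 genes, namely Egr1, Egr2, Egr3, Nr4a1, Nr4a2, Nr4a3, Ier2, Dusp1, Zfp36 and Btg2, of 29411 gene names on the array. The 10 names carried 16 of the 40628 probes, and where a gene had several the one with the highest mean signal stands for it. The genes were chosen by their signal over these same arrays, which was known to vary widely, so their spread and shared order are given as a description with no test. Gene expression in epididymal adipose tissue, the large fat pad of male mice that lies along the epididymis, was measured with 39 Agilent arrays of a single colour in the strain C57BL/6J. The mice were assigned to their diets at random after weaning, at 3 to 4 weeks of age, and ate freely. The low fat control (LFC) drew 10% of its calories from fat and had 11 arrays, from days 1, 6, 10 and 14 and weeks 0, 3, 6, 9, 12, 15 and 18. The high fat control (HFC), a diet with added sucrose that drew 60% of its calories from fat, had 10 arrays, from day 6 on. To this high fat diet KAL-1, a water-based preparation of botanical origin, was added at 5 µg (HF5), 20 µg (HF20) or 75 µg (HF75), with 6 arrays per dose from weeks 3 to 18. Weeks were counted from day 14, per methods published for liver arrays of this feeding experiment, so day 14 and week 0 are the same time sampled again. Each diet had 1 array per time point here. The labels speak of 3 biological replicates and of 5 mice killed per group at each sampling, and do not say how many mice an array stands for. Time points were therefore used as the replicates of a diet, and p-values measure only the spread between these arrays.

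Immediate early genes are transcribed within minutes of a stimulus such as a growth factor, a hormone, mechanical strain or cell injury, because the transcription factors that drive them, among them SRF and CREB, are already present in the resting cell. Their transcripts are short lived, so a level falls back soon after the stimulus ends. Egr1, Egr2 and Egr3 encode zinc finger transcription factors, and Nr4a1, Nr4a2 and Nr4a3 encode orphan nuclear receptors that are switched on through their own amount rather than by a hormone. Ier2 encodes a small nuclear protein, Dusp1 a phosphatase that removes the activating phosphates of MAP kinases, Zfp36 (tristetraprolin) a protein that sends AU-rich mRNAs to decay, and Btg2 an antiproliferative protein that also binds the mRNA deadenylation machinery. In adipose tissue these genes respond to insulin, to adrenergic signals and to handling of the tissue.

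Values are given as normalised signals, the log2 of the processed signal minus the 75th percentile of the array, so a difference of 1 is a doubling. On 37 arrays 53.7% to 79.6% of spots were well above background. The LFC week 3 array (97.1% of spots, 16431 outlier spots) and the HFC week 12 array (94.5%, 10531 outlier spots) stood apart from the others, which had 21 to 387 outlier spots. These 2 arrays were kept in the tests and left out of the descriptions over arrays, where their values are named separately. All 12 adipocyte markers on the fixed list, among them Adipoq and Plin1, were well above background on every one of the 39 arrays. Arrays of bulk tissue cannot tell fewer cells of a type from less RNA per cell.

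The promoters of 7 members were found in RefSeq's promoter table on GRCm38.p6, and those of 5 members that moved together over the arrays are shown to place their known response elements. Each line gives the 250 bases before the gene's start, 5′ to 3′ on the gene's strand. Capitals mark the cAMP response element TGACGTCA, its core TGACG on either strand (the full element contains the core), and the CArG box, the element bound by SRF.
Egr2, chr10:67537619-67537868, plus strand: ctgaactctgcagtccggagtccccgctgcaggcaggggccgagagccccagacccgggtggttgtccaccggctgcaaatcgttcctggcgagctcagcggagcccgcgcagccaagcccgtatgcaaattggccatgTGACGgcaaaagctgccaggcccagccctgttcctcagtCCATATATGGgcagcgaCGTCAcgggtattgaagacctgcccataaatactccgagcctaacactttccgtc
Nr4a1, chr15:101266596-101266845, plus strand: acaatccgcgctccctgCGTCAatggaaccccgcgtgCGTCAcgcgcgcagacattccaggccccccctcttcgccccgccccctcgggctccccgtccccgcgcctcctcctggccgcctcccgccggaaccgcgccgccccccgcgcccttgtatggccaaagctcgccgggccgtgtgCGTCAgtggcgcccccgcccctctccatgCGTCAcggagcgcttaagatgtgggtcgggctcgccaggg
Dusp1, chr17:26508473-26508722, minus strand: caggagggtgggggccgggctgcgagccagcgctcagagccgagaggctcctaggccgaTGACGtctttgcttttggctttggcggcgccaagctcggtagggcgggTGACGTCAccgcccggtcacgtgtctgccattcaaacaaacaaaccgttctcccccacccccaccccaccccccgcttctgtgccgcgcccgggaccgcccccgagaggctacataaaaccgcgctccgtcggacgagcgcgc
Zfp36, chr7:28379229-28379478, minus strand: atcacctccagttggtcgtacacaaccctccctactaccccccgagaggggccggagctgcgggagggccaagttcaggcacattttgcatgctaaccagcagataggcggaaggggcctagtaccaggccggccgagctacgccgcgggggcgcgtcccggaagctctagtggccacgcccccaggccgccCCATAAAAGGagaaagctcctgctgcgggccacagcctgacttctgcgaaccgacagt
Btg2, chr1:134079156-134079405, minus strand: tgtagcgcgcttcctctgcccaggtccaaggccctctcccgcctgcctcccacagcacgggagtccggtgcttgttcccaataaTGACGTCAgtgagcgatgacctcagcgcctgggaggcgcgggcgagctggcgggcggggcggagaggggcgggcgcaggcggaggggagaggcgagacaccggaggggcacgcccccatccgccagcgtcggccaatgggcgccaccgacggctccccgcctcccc
The core TGACG was present before at least 1 listed start of 6 of the 7 members, all but Zfp36, against 17.8% of all 32851 promoter windows of this length. Dusp1 and Btg2 held the full element, which 1.55% of all windows held. Zfp36 and Egr2 held a CArG box, found in 1.47% of windows. The GC box GGGCGG was present before at least 1 listed start of all 7 members and in 32.7% of windows. The Egr site GCGTGGGCG (0.536% of windows) and the NBRE AAAGGTCA bound by Nr4a receptors (1.34%) were in none of these members' windows. A TATA box written as TATAAA was found on 1 strand or the other only for Nr4a2, against 12.4% of windows. Egr2 has 5 listed starts, 4 of them with a CArG box, and 1 is shown, which has no GC box. A member was counted when any of its listed starts had the motif, whereas the background counts single windows. The shares are therefore not quite alike for Egr2. These matches are a description of letters in a window, not of binding.

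Egr1, a factor induced by growth signals, had the widest range of the Egr genes. Over 37 arrays its normalised signal had a median of 5.92 and ran from -0.64 (HF20 week 18) to 6.90 (HF5 week 9), a span of 7.54. The values were not spread evenly. A set of 9 arrays lay between -0.64 and 2.90, the next was at 4.62, and the remaining 28 ran from 4.62 to 6.90. The break of 1.72 between 2.90 and 4.62 was the largest between neighbours in this order, the next being 1.35. LFC arrays ran from -0.45 through a median of 5.72 to 6.31 (n = 10), HFC arrays from -0.21 through 5.72 to 6.47 (n = 9). HF20 arrays were at -0.64, 0.30 and 0.75 at weeks 18, 6 and 12 and at 5.97, 6.21 and 6.25 at weeks 15, 9 and 3. HF75 arrays were at 1.47 at week 12 and between 5.78 and 6.46 otherwise. HF5 was the only diet with no array under the break, from 5.22 to 6.90 (n = 6). The ranges of all 5 diets overlapped. The spots of Egr1 were saturated on 7 of 39 arrays, at 5.43 to 6.26, and the values of those arrays are lower bounds. The 5 highest arrays were not saturated. The 2 arrays that stood apart were at 3.72 (LFC week 3) and 5.43 (HFC week 12).

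**Figure D1:**
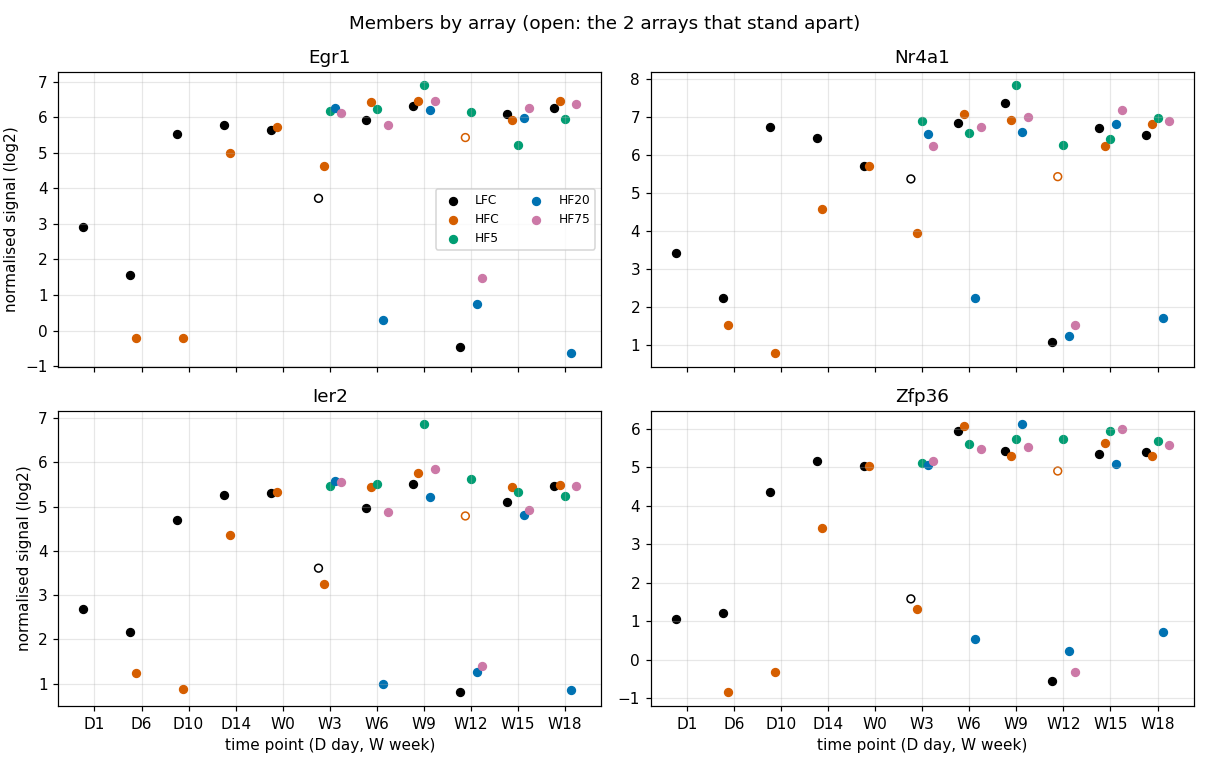
Normalised signal (log2, vertical axis) of Egr1, Nr4a1, Ier2 and Zfp36 on each array by time point (horizontal axis, D for day and W for week), coloured by diet, with open circles for the 2 arrays that stood apart. Most arrays of weeks 0 to 18 lie in a narrow upper band, while HF20 at weeks 6, 12 and 18, LFC and HF75 at week 12, LFC at days 1 and 6 and HFC at days 6 and 10 lie far below it in every panel.

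Egr2, known for its part in fat cell differentiation and in myelination, ran from -1.53 (HFC day 6) to 4.99 (LFC week 9 and HFC week 6), with a median of 3.30. It was below 1.19 on 8 of the 9 arrays of low Egr1, the exception being LFC day 1 at 2.92. HFC day 14 was at 1.19, the lowest of the other 28. The LFC week 3 spot was an outlier and has no value, so every comparison that uses that array rests on 1 array fewer for Egr2. Egr3, a paralogue that often follows Egr1 in lymphocytes and neurons, was well above background on only 2 of 39 arrays. Its values are therefore near background, and it was not tested.

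Nr4a1 (Nur77), induced in fat and muscle by adrenergic stimulation, ran from 0.77 (HFC day 10) through a median of 6.53 to 7.84 (HF5 week 9). On the 9 arrays of low Egr1 it lay between 0.77 and 3.41, and on the other 28 between 3.94 and 7.84, with no overlap. Its spots were saturated on 19 of 39 arrays, 18 of them among those 28, so the order of the upper values is not that of the transcript. Nr4a2 (Nurr1), known from dopamine neurons and also induced in macrophages, had the widest span, 8.25, from -4.06 (HFC day 6) to 4.19 (HF5 week 6). It was at -2.09 or below on the 9 arrays, and HFC week 3 (-2.24) and HFC day 14 (-0.93) were the lowest of the other 28. Nr4a3 (Nor-1) was not well above background on any of the 9 arrays and was so on 26 of the other 28. The 2 without it were again HFC week 3 and HFC day 14. On the 26 arrays it ran up to -2.55 (HF5 week 9). Nr4a1 was thus low on the same 9 arrays as Egr1, and Nr4a2 and Nr4a3 were low on these and on HFC week 3, which lay within the range of the 9 for both.

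The 4 members outside both families behaved alike over the arrays. Ier2 lay between 0.80 and 2.68 on the 9 arrays and between 3.26 and 6.86 on the other 28. Dusp1 lay between 0.64 and 2.81 against 3.65 to 5.95. Zfp36 lay between -0.85 and 1.22 against 1.31 to 6.11, the value of 1.31 being HFC week 3, and all others of the 28 were at 3.43 or above. Btg2, which had the smallest span of the members above background, 4.93, lay between 0.37 and 1.75 against 2.43 to 5.29. On the LFC week 3 array that stood apart, Zfp36, Btg2 and Dusp1 were at 1.58, 1.92 and 1.26, while on HFC week 12 they were at 4.90, 3.83 and 4.78. LFC week 3 was thus near the low arrays for these 3 genes, but not for Nr4a1, which was at 5.37 there.

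**Figure D2:**
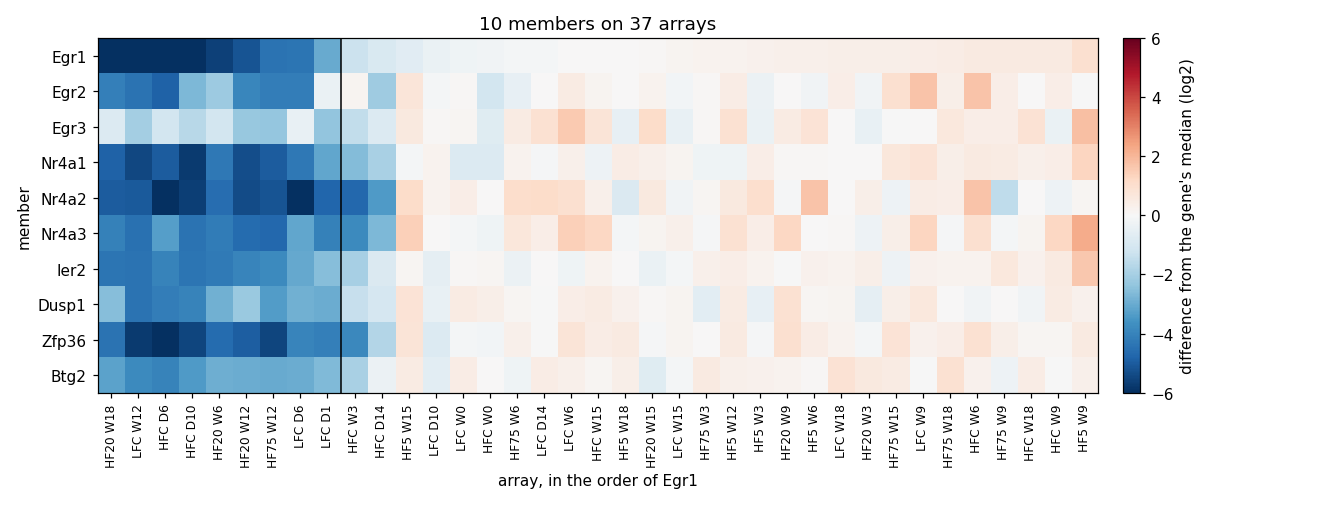
Colour gives the difference of a member's normalised signal from its own median over 37 arrays (log2, limited to 6 either way), with arrays in the order of Egr1 from lowest (left) to highest (right). The black line is the break in Egr1, with 9 arrays to its left, on which nearly all members are below their median by several log2 units. HFC week 3 and HFC day 14 follow as columns that are intermediate for several members.

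The arrays on either side of the break were sorted by a measured value, so the ranges were set side by side with no average and no test. Of the 7 other members bright enough to be measured on 30 or more of the 37 arrays, 5 did not overlap (Nr4a1, Ier2, Dusp1, Zfp36 and Btg2), with all 9 values under all 28. Of 17966 other genes, 97 did so, a background of 0.54%. For 45 genes, or 0.25%, all 9 values lay above all 28, and no member was among them. Egr2 and Nr4a2 overlapped by the arrays named above. Of 46 other immediate early genes, 13 had no overlap in the same direction, namely Fosl2, Jun, Junb, Ier3, Klf2, Klf4, Klf6, Cyr61, Maff, Csrnp1, Plk3, Trib1 and Errfi1. The members were also among the more variable genes on the array. Their standard deviations over 37 arrays ran from 1.55 (Btg2) to 2.64 (Nr4a2), against a median of 0.669 over 17967 genes.

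The 5 lowest arrays for Egr1 were HF20 week 18, LFC week 12, HFC day 6, HFC day 10 and HF20 week 6, with Nr4a1 at 1.69, 1.06, 1.53, 0.77 and 2.22 in that order. The 5 highest were HF5 week 9, HFC week 9, HFC week 18, HF75 week 9 and HFC week 6, with Nr4a1 at 7.84, 6.93, 6.82, 7.01 and 7.09. The 5 lowest came from HF20, LFC and HFC, and the 5 highest from HF5, HFC and HF75. Neither end belonged to 1 diet, and only HFC occurred at both. HF5 week 9 was highest for Egr1, Nr4a1, Nr4a3 and Ier2. That array also had the lowest 75th percentile of the 37 (120, the next being 348) and the lowest share of spots well above background (53.7%), and the part of this in its rank was not tested.

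Some low and high arrays shared a slide or a scan date. The low arrays of days 1 and 6 shared no scan date with a high array. On 1 slide HF20 week 12 had an Egr1 of 0.75 and HF5 week 12 of 6.14, and on another HF20 week 18 had -0.64 and HF5 week 18 had 5.95. The 4 other slides that held a pair of these arrays differed by 0.07 to 0.29. Sample titles also differed. A total of 23 of the 30 arrays of weeks 0 to 18 carry titles ending in a hyphen and the letter A, and none of them lay under the break. Of the other 7, 5 lay under it, and the remaining pair was HFC week 3 at 4.62 and HFC week 18 at 6.47. The labels do not define this ending, which was noticed after the values were seen, and its part in the levels was not tested.

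Of the measures of array quality, the share of spots well above background ran from 67.0% to 79.6% on the 9 arrays and from 53.7% to 79.2% on the 28, and the 75th percentile of the signal from 697 to 1470 against 120 to 1280. Spearman's rho with Egr1 was -0.68 for the share and -0.80 for the percentile over the 37 arrays. The percentile is also what each array was scaled by, so it enters the value of Egr1 itself. The number of outlier spots did not move with it (rho -0.02). The part of signal strength in the order of Egr1 was not tested. The summed level of 8 endothelial markers (Pecam1, Cdh5, Kdr and others, with 5 well above background on all arrays) lay between 4.77 and 6.02 on the 9 arrays and between 5.31 and 8.09 on the 28, and each of the 8 had a positive rho with Egr1, from 0.34 to 0.73. The fibroblast and progenitor list lay between 6.81 and 8.30 against 7.22 to 9.94, and the macrophage list between 4.12 and 5.69 against 4.51 to 6.17. Single macrophage markers went both ways, with rho from -0.68 (Lyz2) to 0.68 (Cd9). The adipocyte list lay between 8.78 and 9.69 against 7.48 to 10.58. For the mesothelium list the low values were on the 28, at 3.06 to 4.61 against -2.27 to 4.67. The part of these cell types in the members' levels was not tested.

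Likeness to Egr1 was measured by Spearman's rho over the 37 arrays, which share normalisation and the break described above. The 10 genes most like Egr1 of 17966 were Mt2 (0.904), Mmrn2 (0.903), E330016A19Rik (0.900), Irf1 (0.894), Jund (0.890), Rgs12 (0.887), Gm2684 (0.886), Nktr (0.881), Gm6485 (0.881) and Ier2 (0.878). Nr4a1 followed closely, at 0.87. The other members were Zfp36 at 0.74, Btg2 at 0.69, Egr2 at 0.68, Dusp1 at 0.59 and Nr4a2 at 0.53. Within each side of the break the order was kept for some members and lost for others. On the 9 arrays rho was 0.93 for Ier2, 0.77 for Btg2, 0.57 for Nr4a1 and 0.02 for Nr4a2. On the 28 arrays it was 0.72 for Ier2, 0.71 for Nr4a1, 0.07 for Dusp1 and -0.06 for Nr4a2. The order of Nr4a1 on the 28 arrays cannot be read, since 18 of them were saturated and are ordered by the percentile that scales both genes. The same percentile enters the other values of rho. Within the weeks, as deviations from the mean of a week over 28 arrays of weeks 3 to 18, rho was 0.95 for Nr4a1, 0.93 for Ier2, 0.87 for Btg2, 0.86 for Zfp36, 0.83 for Nr4a2, 0.73 for Dusp1 and 0.68 for Egr2. Nr4a1 was saturated on many arrays of these weeks too, so its value is limited in the same way.

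**Figure D3:**
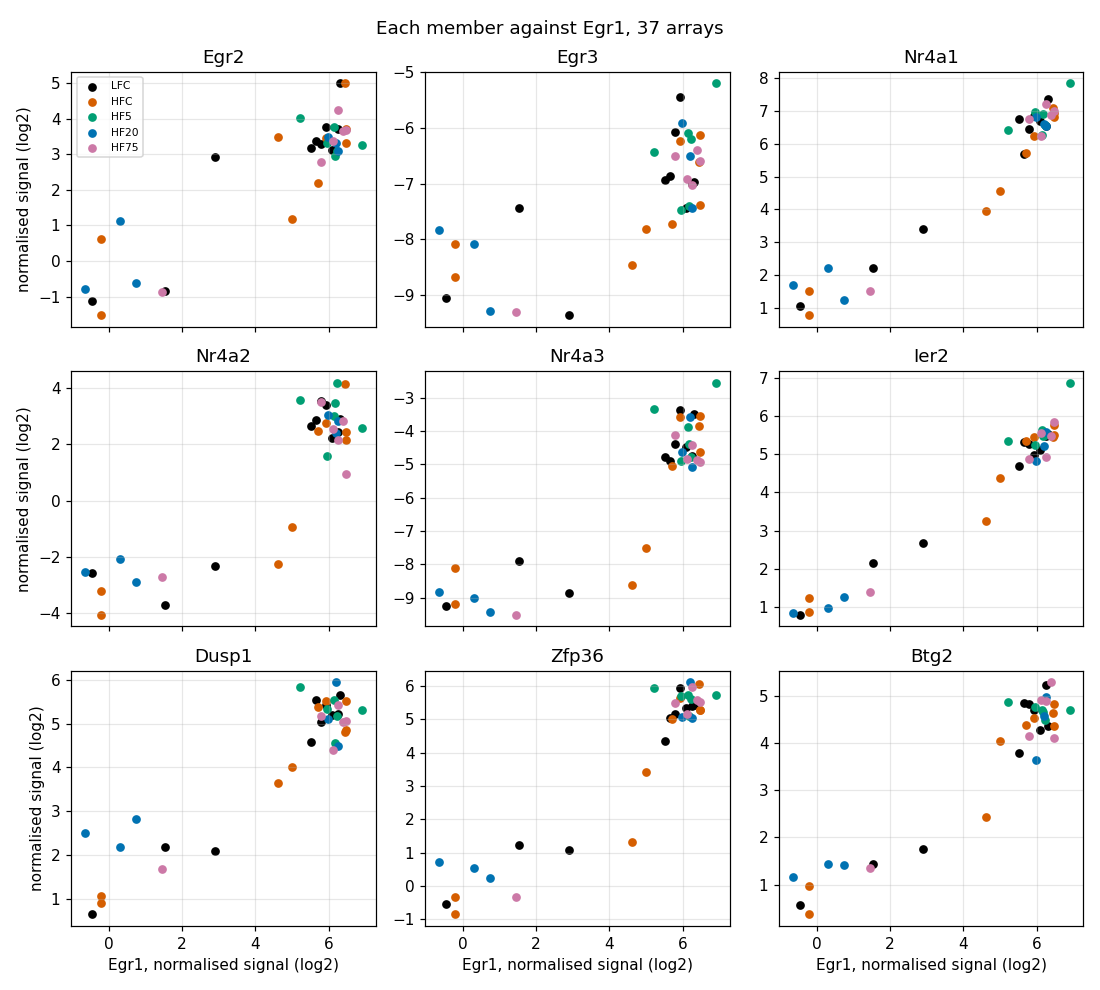
Normalised signal (log2) of each other member (vertical axis, 1 panel each) against that of Egr1 (horizontal axis) on 37 arrays, coloured by diet. The 9 arrays with Egr1 at or below 2.90 lie at the lower left, except LFC day 1 for Egr2 (2.92). HFC week 3 and HFC day 14 come next along Egr1, and their height differs between panels. HFC week 3 is at 3.48 for Egr2, but at -2.24 for Nr4a2 and -8.61 for Nr4a3, within the range of the 9. The rest form an upper cloud. Of the 28 values of Nr4a1 above the break, 18 were saturated. Egr3 and, at the lower left, Nr4a3 were not well above background.

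The other immediate early genes also followed Egr1. Over 46 of them the median rho was 0.71, and 40 exceeded 0.5, against a median of 0.01 and a share of 18.2% over all genes. The highest were Jund (0.89), an AP-1 subunit, Socs3 (0.87), a brake on cytokine signalling, Gadd45g (0.87), Nfkbia (0.87), the inhibitor of NF-κB, Klf6 (0.85) and Klf2 (0.85). The lowest were Dusp4 (-0.02), a nuclear MAP kinase phosphatase, Zfp36l2 (0.30) and Ctgf (0.40). Of the 19 upstream and partner genes, 9 exceeded 0.5. Crtc2, a coactivator of CREB, was at 0.82 and Srf at 0.76. Heat shock genes had a median of 0.54, with Hspa1a at 0.82 and Hspa8 at 0.69. Glucocorticoid targets had a median of 0.59, led by the metallothionein Mt2 (0.90) and by Nfkbia, whereas Fkbp5 and Tsc22d3, picked after their values were seen, were both at 0.14. The lists overlap, so this median is not separate from those above. Dusp1 is also a member, and Nfkbia, Errfi1 and Per1 are also on the list of other immediate early genes. Per1 is on the clock list as well. Clock genes had a median of 0.23, with Nr1d2 at 0.62 and Cry1 at 0.60. Adipocyte markers had a median of -0.20, although Fabp4 and Cfd were at 0.78 and 0.75, and endothelial markers had a median of 0.54.

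**Figure D4:**
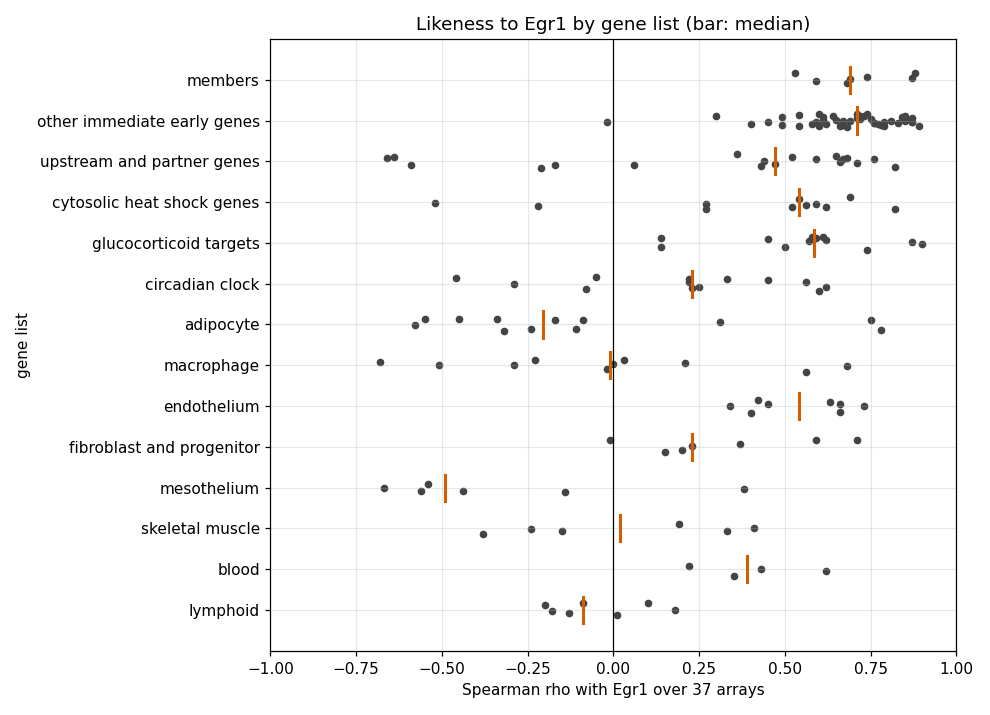
Spearman's rho of each listed gene with Egr1 over 37 arrays (horizontal axis) by gene list (vertical axis), with a bar at each list's median and points spread vertically for legibility. The members and the other immediate early genes have medians of 0.69 and 0.71, and those of the adipocyte (-0.20), macrophage (-0.01), lymphoid (-0.09) and mesothelium (-0.49) markers are at or below 0, with single genes such as Fabp4 (0.78) far above it. Other cell type lists have medians above 0, namely endothelium (0.54), blood (0.39), fibroblast and progenitor (0.23) and skeletal muscle (0.02).

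Whether diet shifted the members was tested with limma, with time point as a block. No member passed in HFC against LFC over 10 time points or over weeks 3 to 18, and the background was 0% (0 of 29168 and 0 of 31450 probes at an adjusted p of 0.05, with 889 and 725 at an unadjusted p under 0.05). Of 9 members tested, none had an unadjusted p under 0.05 in either. Egr1 was 4.57 ± 2.59 (SD, n = 10) in HFC and 4.64 ± 2.32 (n = 10) in LFC over the 10 time points. The difference was -0.07 (95% interval -1.76 to 1.62), and HFC was higher at 6 of 10 time points. Over weeks 3 to 18 it was 1.25 (-0.85 to 3.35, adjusted p = 1 by limma), but 0.33 without week 12, 0.42 without the 2 arrays that stood apart and 0.34 with array weights. Over the 10 time points it was -0.94 without those 2 arrays, -0.73 without week 12 and 0.56 without day 10. All 9 members tested were higher in HFC over weeks 3 to 18, with a median difference of 0.72 against 0.06 over all probes, while over the 10 time points all 9 were lower, with a median of -0.27. The members move together over the arrays, so the 9 are not independent in either comparison. For Egr1 the interval over 10 time points reaches past a doubling in both directions.

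The 3 doses of KAL-1 were compared with HFC over the same weeks, and no member passed the threshold at any dose. No probe passed for HF5, HF20, HF75 or the mean of the doses, a background of 0% each time. With an unadjusted p under 0.05 there were 1076, 1523, 472 and 549 probes. For HF20 the members were lower in all 9 of those tested, with a median difference of -1.89 against -0.07 over all probes, and 5 had an unadjusted p under 0.05. The members move together over the arrays, so these 9 are not independent. The count of 5 became 0 without week 6 or with array weights, 1 without week 18 and 8 without week 3. It was 2 without the 2 arrays that stood apart. Of the cell type markers, 0 of 8 endothelial (median -0.53) and 0 of 7 fibroblast and progenitor ones (-0.42) were higher in HF20, against 10 of 12 adipocyte (0.67), 6 of 6 mesothelium (1.05) and 6 of 7 epididymis ones (1.53), none past the threshold, and their part in the members' difference was not tested. Egr1 was 3.14 ± 3.32 (SD, n = 6) in HF20 and 5.89 ± 0.75 (n = 6) in HFC, a difference of -2.75 with SE 1.02 (adjusted p = 0.78 by limma). Egr2 differed by -2.08 with SE 0.72 and Ier2 by -1.91 with SE 0.74, each at an adjusted p of 0.78 by limma. HF20 was higher than HFC for Egr1 at 2 of 6 weeks. The difference rested on weeks 6, 12 and 18. Without week 18 it was -1.88, and without the 2 arrays that stood apart it was -2.26. Over arrays with titles ending in a hyphen and A alone it was 0.16, an alternative chosen after the data were seen. That choice leaves out the HF20 arrays of weeks 6, 12 and 18, on which the difference rested. The value of 0.16 thus followed from the choice and is no test of the difference. With array weights, which give arrays far from the fit less weight, the Egr1 difference was -1.15. HF5 differed from HFC by 0.21 (-1.89 to 2.31) for Egr1, with 8 of 9 members higher, and HF75 by -0.48 (-2.58 to 1.62), with 1 of 9 higher. Without the 2 arrays that stood apart the Egr1 difference was 0.70 for HF5 and 0.01 for HF75. The doses share the HFC arrays, so these differences are not independent, and the differences between doses were not tested.

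**Figure D5:**
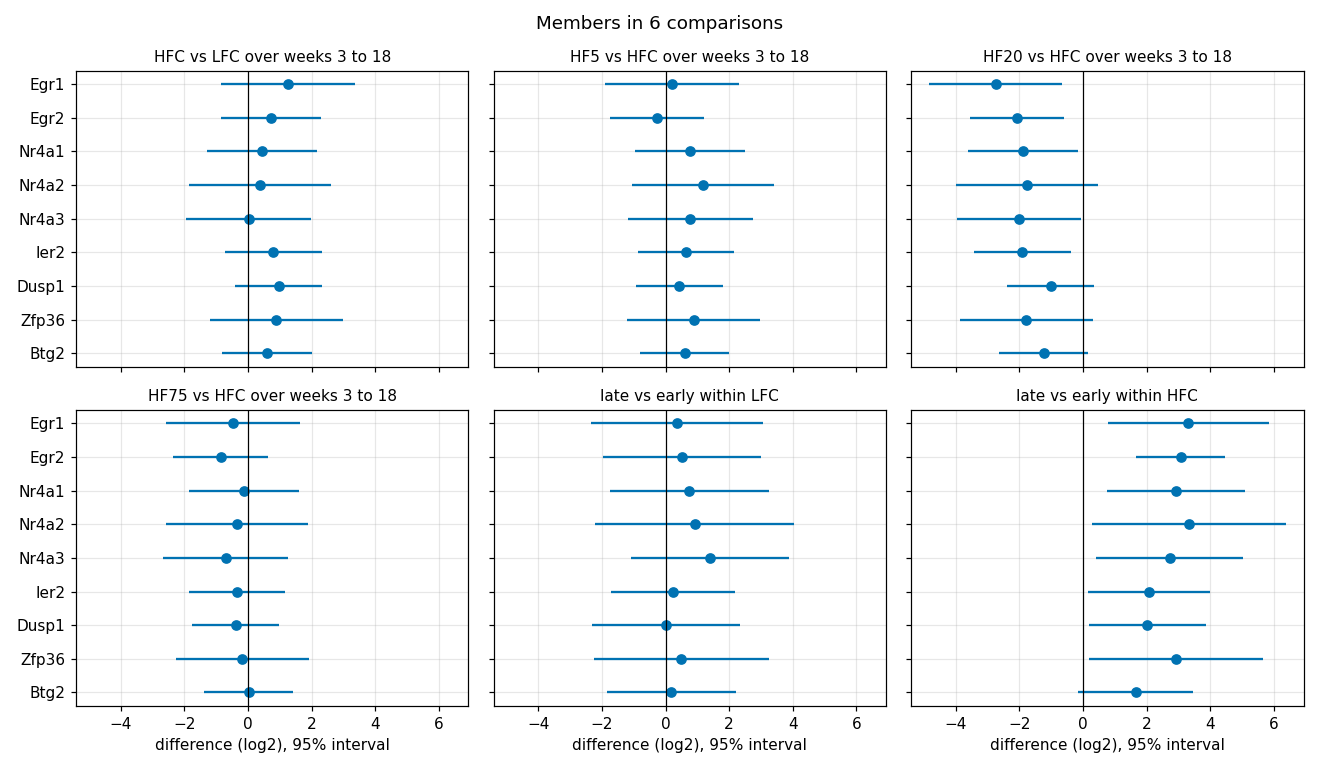
Difference in normalised signal (log2, horizontal axis) of 9 members (vertical axis) in 6 comparisons, first group minus second, with bars for the 95% interval from limma. Intervals exclude 0 for 5 members in HF20 against HFC and for 8 members in late against early arrays of HFC, none of which passed the adjusted threshold.

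Weeks were compared across the diets. The F test over weeks 3 to 18, with diet in the fit, called 3377 of 31450 probes, a background of 10.7%, and 1 of 9 members. That member was Nr4a1 (F = 4.67, adjusted p = 0.0445 by limma), and 1 of 9 is close to the background share. With normexp background or with outlier spots kept no member passed, and with array weights all 9 did. The share of all probes that passed with array weights was not counted, so those 9 have no background beside them. Nr4a1 had a median of 7.01 at week 9 (6.61 to 7.84, n = 5) and of 1.38 at week 12 (1.06 to 6.26, n = 4 without the HFC array). Its spots were saturated on many arrays of these weeks, among them LFC, HF20 and HFC at week 9 and HF5 at week 12. Those values are lower bounds, which limits its F test as well. Egr1 had an adjusted p of 0.143 and Egr2 of 0.0777. At week 12 the LFC, HF20 and HF75 arrays were low and HF5 was not. Of 47 other immediate early genes 8 passed, namely Klf2, Junb, Klf4, Gadd45g, Jund, Rgs2, Dusp6 and Nfil3. Among upstream genes Mkl1 and Nab1 passed (2 of 20), and among heat shock genes Hsph1, Hsp90aa1 and Hsp90ab1 (3 of 11). Cell type markers passed too, namely 7 of 7 of fibroblasts and progenitors, 5 of 6 of mesothelium, 5 of 12 of adipocytes, 3 of 4 of blood, 3 of 8 of lymphoid cells, 2 of 10 of macrophages, 1 of 8 of endothelium and 1 of 8 of skeletal muscle, and their part in the members' levels was not tested. Week and scan date ran together, so they cannot be told apart.

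Late arrays (weeks 3 to 18) were compared with early ones (days 1 to 14 and week 0) within a diet. In LFC no member passed, against a background of 0.49% (149 of 30418 probes), and Egr1 differed by 0.36 (-2.35 to 3.06). In HFC all 9 members were higher late, with a median difference of 2.93, and 8 had an unadjusted p under 0.05. The members move together over the arrays, so these 9 are not independent. With single arrays left out, the count of 8 ran from 2 (without day 6 or day 10) to 9 (without week 0 or week 3). It was 4 without week 12, the HFC array that stood apart. Endothelial markers were higher late for 8 of 8 (median 0.84), mesothelium for 0 of 6 (-1.62) and adipocyte ones for 2 of 12 (-0.85), none past the threshold, and their part was not tested. None of the members passed the adjusted threshold, nor did any of 29397 probes, a background of 0%, although 5097 probes had an unadjusted p under 0.05. Egr1 was 5.89 ± 0.75 (SD, n = 6) late and 2.58 ± 3.23 (n = 4) early, a difference of 3.31 with SE 1.16 (adjusted p = 0.229 by limma). Egr2 differed by 3.07 with SE 0.63 (adjusted p = 0.207 by limma). With array weights all 9 members passed, but the share of all probes that passed in that fit was not counted. The 9 can therefore not be read as a result about the members. The early HFC arrays of days 6 and 10 were at -0.21 and -0.20 for Egr1, while day 14 was at 5.00 and week 0 at 5.72. With week 0 as the only early array, in the scan period of the late ones, the difference for Egr1 was 0.17. The change with time was larger in HFC than in LFC by 3.30 (0.38 to 6.23) for Egr1, with an adjusted p of 0.841 by limma, and no probe of 29168 passed (0%, with 1499 at an unadjusted p under 0.05). It was 2.08 without day 10 and 1.55 with array weights, and endothelial markers moved the same way for 8 of 8 (median 1.48). Apart from week 0, time and scan period ran together and cannot be told apart.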

How the data were processed

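RNA of epididymal adipose tissue was hybridised to 39 one-colour arrays, 1 per diet and time point. Per the file headers, the intensity of each spot in the deposited scanner files was corrected for background and spatial trend by Feature Extraction 10.5.1.1, whereas the submitters' processing notes name version 9.1. The authors deposited log2 values relative to LFC at each time point, and methods published for liver arrays of the same feeding experiment name GeneSpring GX. This table was used as an alternative only, and its values followed those of the scanner files (r from 0.992 to 1.00 over 28 arrays, members within 0.0913). The labels speak of 3 biological replicates and of 5 mice killed per group at each sampling, but how many mice an array stands for is not given in the sources used here. Day 14 and week 0, the same time by those methods, were kept as separate time points. Precision is limited by how many arrays there are.

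The log2 processed signal minus the 75th percentile of each array was taken, outlier spots were set to missing, and spots of a probe were averaged. Tests used limma 3.58.1 in R 4.3.3, two-sided, with Benjamini-Hochberg adjustment over all probes tested at 0.05. Testing required a signal well above background on 10 of 20 arrays (10 time points), 6 of 30 (weeks 3 to 18) or 5 (within a diet). Fits handled missing spots and were tested on simulated data. Descriptions used Python 3.11.15, pandas 2.3.3, numpy 2.4.6, and matplotlib 3.10.9. Likeness to Egr1 was taken over 37 arrays and over genes well above background on at least 30 of them. The 10 genes with the highest rho were named, with up to 6 highest and 3 lowest of the other immediate early genes and up to 2 of each other list. Any listed gene of the members' pathways that passed a test was named as well. Arrays with titles ending in a hyphen and A alone, and Pearson's r, were alternatives added after the data were seen. The members, lists and tests were chosen with earlier results of these data known. All 10 names matched RefSeq symbols, which were used for names and promoters on GRCm38.p6. Alternatives changed the scaling (median, quantile), the background correction (normexp with an offset of 50), outlier spots, the filter, the arrays, array weights, the block, the probe, and the test (the methods' t-test on paired differences).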

Additional observations from a re-analysis of the deposited data

Results flagged for a closer look

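Members were checked for single arrays far from the rest of their diet in 42 sets of 4 to 10 arrays, and 10 sets held one. Chance alone flags about 1 in 20 such sets when genes are not selected. The members were chosen for signals known to vary widely, so the 10 cannot be set against that rate. They also move together, so the 10 sets are not independent. In 9 of them the array was HF75 week 12. There Egr1 was at 1.47 against 5.78 to 6.46 on the other 5 HF75 arrays, Nr4a1 at 1.53 against 6.25 to 7.20, Zfp36 at -0.33 against 5.17 to 5.98 and Ier2 at 1.40 against 4.88 to 5.85. Egr2 was at -0.86 (the nearest other array at 2.79), Dusp1 at 1.68 (4.41) and Btg2 at 1.36 (4.10). Nr4a3 at -9.52 and Egr3 at -9.31 were not well above background on that array. The remaining array was HF5 week 9, where Ier2 was at 6.86 against 5.24 to 5.63 on the other 5 HF5 arrays. That array had the lowest 75th percentile of signal of the 37 (120), by which its values were scaled.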

How the results depend on the processing

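The number of members called stayed at 0 in 8 of 10 comparisons under all of their 163 alternatives, among them the fits without the time point block, the methods' t-test and the authors' table. No paired sampling of animals is stated, and the time point block changed no call. Of the other 2 comparisons, the difference between weeks called 1 member, and 0 with normexp background, with outlier spots kept, with no filter on dim probes, with the other probes of the members or over arrays with titles ending in a hyphen and A alone (chosen after the data were seen). With both arrays that stood apart left out it called 5, with array weights 9, and 0 to 2 when each diet was left out in turn (0 without LFC, HF20 or HF75). Late against early within HFC called 0 members, 9 with array weights, and 0 to 1 when each array was left out (1 without week 0). The cause was not tested, and the share of all probes called was not counted under these alternatives. Without single weeks the Egr1 difference of HF20 against HFC ran from -3.63 to -1.88. The sign of the Egr1 difference, never past the threshold, turned under 5 of 22 alternatives for HFC against LFC over 10 time points, 3 of 19 for HF5, 3 of 19 for HF75, 3 of 20 for late against early in LFC and 1 of 19 each for HF20 and the mean of the doses. For HF20 and the mean of the doses this was the choice of arrays by title. It left out every weekly array under the break, so these sign changes followed from the choice. A slide block could not be fitted to HFC against LFC over 10 time points, where the shared slides each hold the pair of a time point, which is already a block. Spearman's rho with Egr1 of the 7 other members above background ran from 0.53 to 0.95 over 48 alternatives, which share the break in Egr1. Saturation of Nr4a1 and Egr1 and signals near background for Egr3 and Nr4a3 limit what the arrays can measure.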

Other observations

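The choice of measure changed which genes stood closest to Egr1, as noticed after the data were seen. By Spearman's rho only Ier2 of the members was among the 10 nearest genes. By Pearson's r, which weighs the distance across the break in Egr1, the 10 nearest were Ier2 (0.980), Nr4a1 (0.971), Fos (0.960), Junb (0.956), Btg2 (0.954), Cyr61 (0.952), Zfp36 (0.949), Apold1 (0.949), Jun (0.949) and Socs3 (0.948), that is 4 members, 5 other immediate early genes and Apold1, an immediate early gene of endothelial cells that was on no list. The arrays fall on 2 sides of a break, so these r values mainly describe the distance between the sides. Fos was at 0.596 by rho and Cyr61 at 0.602.

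Other probes of the same gene kept the sign of rho but not its size. A probe of Btg2 had a rho of 0.54 with Egr1 against 0.69 for the brightest, and a probe of Ier2 0.60 against 0.88.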
